A study of Mus musculus with 16 samples.

Results

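The renin-angiotensin and bradykinin genes examined here were 8 genes chosen by name from the 55492 genes listed for left ventricles of PKM2fl/fl and PKM2-/- mice. They were angiotensinogen (Agt), angiotensin-converting enzyme (Ace), neprilysin (Mme), the angiotensin receptors Agtr1a and Agtr2, the mineralocorticoid receptor Nr3c2, and the bradykinin receptors Bdkrb1 and Bdkrb2. All 8 were listed, and 6 of them had a mean of at least 10 normalized counts and entered the tests. The other 2 were Bdkrb1, with a mean of 7.03, and Agtr2, with a mean of 0.180. The 16 hearts came from C57BL/6 male mice aged 8 to 12 weeks. PKM2fl/fl mice, the controls, carry loxP sites around the exon of Pkm that is specific to pyruvate kinase M2. PKM2-/- mice lack that exon in every cell, through germline deletion by a Cre driven from the CMV promoter that was later bred out. Each genotype gave 2 hearts at baseline with no operation, 3 hearts taken 3 days after sham surgery, and 3 hearts taken 3 days after permanent ligation of the left anterior descending coronary artery to cause myocardial infarction (MI).

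Angiotensinogen is cut by renin to angiotensin I, which angiotensin-converting enzyme turns into angiotensin II, and the same enzyme degrades bradykinin. Angiotensin II acts mainly through the type 1 receptor to constrict vessels and to release aldosterone, whose receptor Nr3c2 is a transcription factor, and blockers of these steps are used to treat the heart after MI. Bradykinin acts through Bdkrb2, which is usually present in resting tissue, and its des-Arg form through Bdkrb1, which is known to be induced in injured tissue.

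The promoters of 4 genes are shown first, of which 3 fell after MI and 1 rose. Each is the 250 bases before a start of transcription in RefSeq on GRCm38.p6, the same assembly as mm10, written 5′ to 3′ on the gene's own strand. The Nr3c2 gene is annotated from 76898083 on chromosome 8, so the window shown for it lies inside the gene, before an internal start. Capitals mark matches on either strand to the TATA box word TATAAA, the Sp1 box word GGGCGG, the corticoid half-site word AGAACA or the AP-1 word TGACTCA. Of the 8 genes, 6 were matched in the table. Agtr1a, which also fell after MI, and Bdkrb1 were not matched and are not shown.
Nr3c2, chr8:76902080-76902329, forward strand: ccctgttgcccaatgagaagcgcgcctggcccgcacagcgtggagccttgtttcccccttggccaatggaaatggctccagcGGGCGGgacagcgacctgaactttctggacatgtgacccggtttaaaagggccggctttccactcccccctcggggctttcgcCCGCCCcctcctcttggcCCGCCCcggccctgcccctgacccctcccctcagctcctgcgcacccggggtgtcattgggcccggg
Mme, chr3:63294961-63295210, forward strand, first of 3 starts: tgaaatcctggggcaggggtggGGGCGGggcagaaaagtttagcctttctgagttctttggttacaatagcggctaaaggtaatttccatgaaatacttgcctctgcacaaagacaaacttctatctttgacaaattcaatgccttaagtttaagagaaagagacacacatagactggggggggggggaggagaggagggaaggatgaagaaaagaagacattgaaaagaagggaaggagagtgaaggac
Agt, chr8:124569707-124569956, reverse strand: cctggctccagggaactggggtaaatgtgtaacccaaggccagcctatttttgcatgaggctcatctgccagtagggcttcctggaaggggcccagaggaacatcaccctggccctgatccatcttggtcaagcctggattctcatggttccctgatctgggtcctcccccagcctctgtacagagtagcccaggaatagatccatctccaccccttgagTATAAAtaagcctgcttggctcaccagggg
Bdkrb2, chr12:105562922-105563171, forward strand: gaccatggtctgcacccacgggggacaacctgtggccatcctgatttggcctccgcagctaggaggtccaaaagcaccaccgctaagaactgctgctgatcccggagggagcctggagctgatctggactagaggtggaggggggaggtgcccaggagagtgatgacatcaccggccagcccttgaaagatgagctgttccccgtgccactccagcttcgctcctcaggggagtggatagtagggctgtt
Nr3c2 held 3 matches to GGGCGG, and Mme held 1. Agt held 1 match to TATAAA, and Bdkrb2 had none of the 4. Over 32851 promoters of this length, TATAAA was found in 12.4%, GGGCGG in 32.7%, AGAACA in 16.1% and TGACTCA in 4.46%. The Nr3c2, Mme and Agt promoters shared no matched word beyond GGGCGG in Nr3c2 and Mme.

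Expression was read from rRNA-depleted libraries as normalized counts, the reads on a gene divided by the size factor of its library. The libraries held 20623769 to 71855101 reads on genes, of which 1708 to 13647 fell on the 8 genes. Reads on loci related to rRNA made up 15.8 to 46.1% of a library, and 39.8 to 43.9% in the PKM2-/- baseline hearts against 17.3 to 22.1% in the PKM2fl/fl baseline hearts. The sham hearts also stood apart by genotype, at 28.7 to 46.1% in PKM2-/- and 15.8 to 27.8% in PKM2fl/fl hearts. The MI hearts overlapped, at 16.1 to 34.5% and 19.9 to 44.8%. Cardiomyocyte markers were high in every group and 5 lung markers together stayed at or below 27.6 normalized counts. The 5 atrial markers summed to 208 to 243 in PKM2fl/fl and 432 to 530 in PKM2-/- baseline hearts, and to 607 to 1717 and 562 to 1899 after sham. The 5 adipocyte markers summed to 28.8 to 38.0 in PKM2fl/fl and 75.7 to 83.6 in PKM2-/- sham hearts. Their part in the results was not tested. Pkm as a whole gene had 7779 to 12076 normalized counts in PKM2fl/fl and 10120 to 16113 in PKM2-/- hearts. Its reads were not split by exon, so they do not check the deletion. The labels number the hearts within a group and give no litter or batch, so the p-values measure the spread between these hearts.

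At baseline the genes spanned a wide range of levels. Per kilobase of the canonical transcript, Nr3c2 had 579 normalized counts in PKM2fl/fl hearts and Agtr1a had 558. Ace followed with 229 normalized counts per kilobase, Mme with 49.7, Agt with 6.39, Bdkrb2 with 3.74 and Bdkrb1 with 1.26. Nr3c2 and Agtr1a were thus the most abundant of the 8 transcripts, and the ligand precursor and both bradykinin receptors were close to the lower end. Agtr2, the type 2 angiotensin receptor, had 2 reads in 1 PKM2-/- heart after MI and 0 in the other 15. If each read is counted alone, a count of 0 allows up to 3 reads, which is 1.47 to 5.50 normalized counts depending on the library. This floor covers counting error only. The libraries were sequenced in paired ends, and whether both ends of a fragment were counted is not given in the sources used here. If both were, the floor is higher and the reads on a gene come from fewer fragments.

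MI was compared with sham surgery in each genotype to find which genes of the system moved in the injured ventricle. In PKM2fl/fl hearts, Agtr1a, Nr3c2, Mme and Agt fell by more than 2-fold and Bdkrb2 rose 4.86-fold. In PKM2-/- hearts the same 4 genes fell, and Bdkrb2 was 2.01-fold higher but missed the threshold. Ace changed in neither genotype by the test. By limma on log2 of the normalized count plus 1, with Benjamini-Hochberg adjustment over 20576 genes, 5 of the 6 tested genes were differentially expressed in PKM2fl/fl hearts (adjusted p under 0.05 and at least 2-fold), where 23.5% of all genes were (12.4% higher and 11.1% lower). In PKM2-/- hearts 4 of 6 were, beside 28.8% of all genes (14.5% higher and 14.3% lower). Over the 6 genes, the log2 fold change had a median of −1.33 in PKM2fl/fl and −1.55 in PKM2-/- hearts, against −0.0025 and 0.01 over all genes tested.

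Because whole ventricle was sequenced, fewer cells of a type and less RNA per cell cannot be told apart. The 7 cardiomyocyte markers (Myh6, Tnnt2, Tnni3, Actn2, Ryr2, Pln and Myl2) also fell, 7 of 7 in both genotypes, with a median log2 fold change of −1.74 in PKM2fl/fl and −2.19 in PKM2-/- hearts. Their summed level was 793234 to 889830 normalized counts after sham and 133758 to 326404 after MI in PKM2fl/fl, and 694160 to 848141 after sham and 143024 to 201767 after MI in PKM2-/- hearts. No cardiomyocyte marker was at 0 in any group. The 6 pericyte markers summed to 21108 to 23769 normalized counts after sham over both genotypes. After MI they summed to 10754 to 15797 in PKM2fl/fl and to 10132 to 10809 in PKM2-/- hearts. The pericyte markers did not all fall, since 2 passed upward and 3 downward in PKM2fl/fl hearts, and 1 and 4 in PKM2-/- hearts. Rgs5 made up much of the sum, with a mean of 9631 after sham and 4902 after MI in PKM2fl/fl hearts. The 7 macrophage and monocyte markers were all called higher in both genotypes. The part of these markers in the changes of the 8 genes was not tested.

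Of the substrate and the enzymes, Agt was the least abundant. Agt had 75.8, 48.2 and 48.5 normalized counts in the PKM2fl/fl sham hearts and 30.9, 15.0 and 18.3 after MI, from 14 to 129 reads per heart. Among the knockouts it had 72.3, 238 and 51.8 after sham and 42.2, 27.9 and 37.5 after MI. The groups did not overlap in either genotype, and 1 PKM2-/- sham heart, replicate 2, stood far above the rest. Agt fell by 1.42 on the log2 scale in PKM2fl/fl (SE 0.46, adjusted p = 0.0174, limma) and by the same amount in PKM2-/- hearts (SE 0.46, adjusted p = 0.0149, limma). Without the high PKM2-/- sham heart the difference was −0.77 with an adjusted p of 0.0890 by limma, and it was also lost without PKM2-/- MI replicate 2 (adjusted p = 0.0567). In PKM2fl/fl it was lost without sham replicate 1 (adjusted p = 0.0733) or MI replicate 2 (adjusted p = 0.0626), again by limma. Agt overlaps Cog2, a subunit gene of a Golgi tethering complex on the opposite strand, which had 289 to 1096 reads, and the strand setting of the counting is not given in the sources used here.

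Mme encodes neprilysin, a membrane peptidase that cleaves bradykinin, natriuretic peptides and angiotensin I. It had 320, 340 and 335 normalized counts after sham and 102, 203 and 130 after MI in PKM2fl/fl hearts. For PKM2-/- hearts the values were 383, 325 and 399 after sham and 114, 111 and 115 after MI, with all 3 MI hearts within a few counts of each other. Mme fell by 1.25 on the log2 scale in PKM2fl/fl (SE 0.19, adjusted p = 5.72e-05, limma) and by 1.69 in PKM2-/- hearts (SE 0.19, adjusted p = 2.67e-06, limma). No heart after MI reached the lowest sham heart of its genotype.

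Ace had 1486, 1515 and 1372 normalized counts after sham and 1948, 1476 and 1371 after MI in PKM2fl/fl hearts. The knockouts had 2079, 2052 and 2483 after sham and 2094, 1850 and 1626 after MI. The MI and sham hearts overlapped in both genotypes. The log2 fold change was 0.12 in PKM2fl/fl (95% interval −0.16 to 0.40, adjusted p = 0.485, limma) and −0.25 in PKM2-/- hearts (−0.53 to 0.03, adjusted p = 0.120, limma). Ace is annotated over the antisense RNA Gm11651, whose reads came to 75.5 to 80.1% of the Ace reads in every library, so reads from this pair cannot be told apart without strand.

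**Figure D1:**
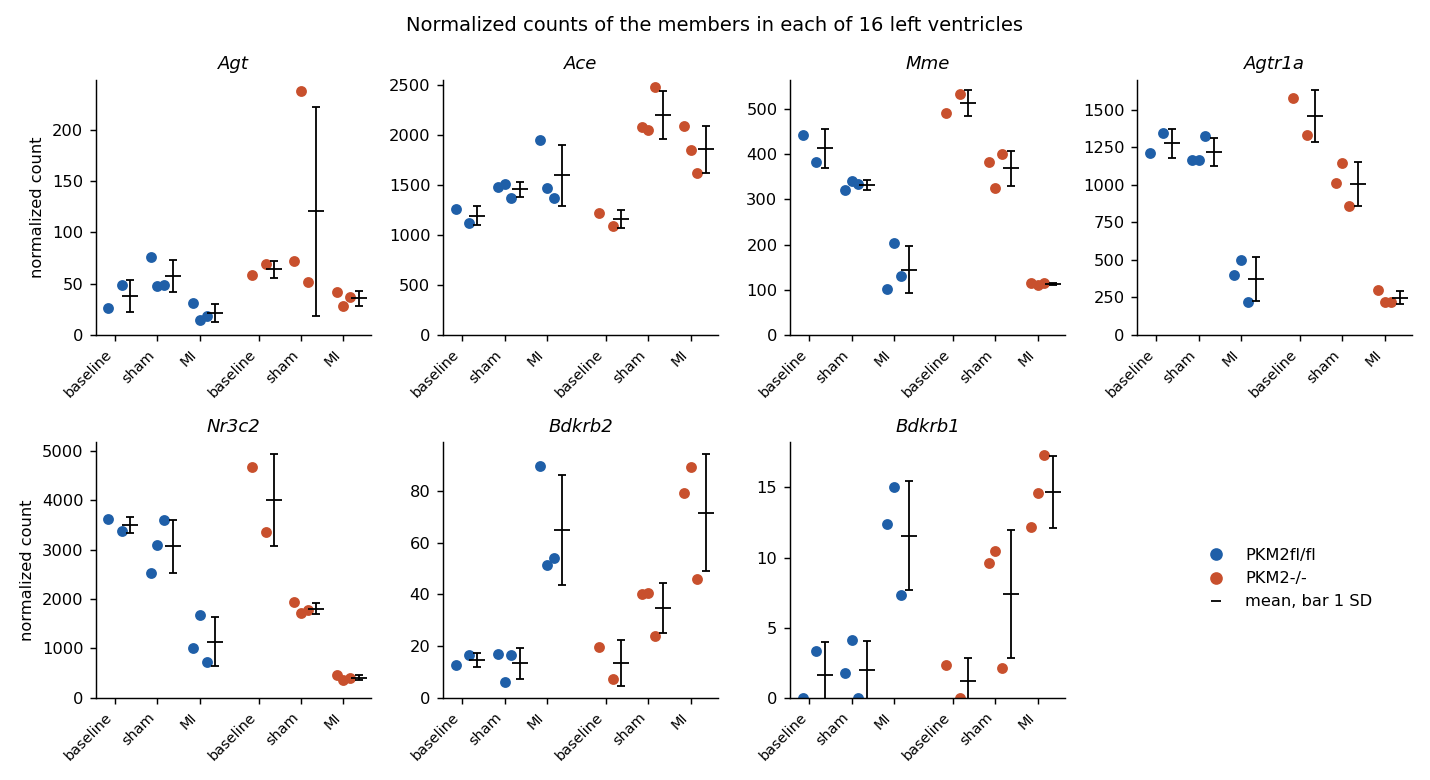
Normalized counts (y axis, from 0) of 7 of the 8 genes in each of the 16 hearts, by treatment (x axis), with PKM2fl/fl in blue and PKM2-/- in orange. Points are hearts, and the bar beside them is the mean with 1 SD, cut off at 0. Agtr1a, Nr3c2, Mme and Agt are lower in every MI heart than in any sham heart of the same genotype, Bdkrb2 and Bdkrb1 are higher in every one, and Ace overlaps. Agtr2 had 2 reads in all and is not drawn.

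Among the receptors, Agtr1a and Nr3c2 fell furthest. Agtr1a, the type 1 angiotensin receptor, had 1168, 1162 and 1326 normalized counts after sham and 397, 503 and 219 after MI in PKM2fl/fl hearts. Among PKM2-/- hearts there were 1011, 1147 and 857 after sham and 298, 222 and 222 after MI. Every MI heart lay far below every sham heart. Agtr1a fell by 1.79 on the log2 scale in PKM2fl/fl (SE 0.23, 3.45-fold, adjusted p = 1.44e-05, limma) and by 2.02 in PKM2-/- hearts (SE 0.23, 4.06-fold, adjusted p = 3.09e-06, limma). Agtr1b, the second type 1 receptor gene of the mouse, was too low to be tested.

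Nr3c2, the mineralocorticoid receptor, had 2520, 3091 and 3592 normalized counts after sham and 1008, 1678 and 729 after MI in PKM2fl/fl hearts. The PKM2-/- values were 1934, 1708 and 1776 after sham and 458, 353 and 397 after MI. The 4 groups after surgery did not overlap with each other and ran in the order PKM2fl/fl sham, PKM2-/- sham, PKM2fl/fl MI and PKM2-/- MI. Nr3c2 fell by 1.50 on the log2 scale in PKM2fl/fl (SE 0.23, adjusted p = 6.96e-05, limma) and by 2.17 in PKM2-/- hearts (SE 0.23, adjusted p = 1.84e-06, limma).

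Both bradykinin receptors were higher after MI. Bdkrb2 had 17.0, 6.16 and 16.7 normalized counts after sham and 89.7, 51.4 and 54.0 after MI in PKM2fl/fl hearts. Values in PKM2-/- hearts were 40.2, 40.5 and 23.7 after sham and 79.4, 89.5 and 46.2 after MI. The MI and sham hearts did not overlap in either genotype, and the PKM2-/- sham hearts lay between the PKM2fl/fl sham and MI hearts. Bdkrb2 rose by 2.28 on the log2 scale in PKM2fl/fl hearts (SE 0.44, adjusted p = 0.000530, limma). In PKM2-/- hearts the difference was 1.01 (SE 0.44, adjusted p = 0.0631, limma), and it passed at an adjusted p of 0.0295 with edgeR and 0.0142 with DESeq2 on the recovered reads.

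Bdkrb1, which lies beside Bdkrb2 on chromosome 12, had 1.76, 4.11 and 0 normalized counts after sham and 12.4, 15.0 and 7.32 after MI in PKM2fl/fl hearts. The PKM2-/- hearts had 9.65, 10.4 and 2.16 after sham and 12.2, 14.6 and 17.3 after MI. All 6 MI hearts had at least 8 reads on Bdkrb1, and the groups did not overlap in either genotype. The log2 difference was 2.33 in PKM2fl/fl and 1.10 in PKM2-/- hearts, each with p = 0.1 by a two-sided exact permutation test, the smallest that 3 hearts against 3 allow. With no filter on low values, limma gave an adjusted p of 0.0365 in PKM2fl/fl and 0.348 in PKM2-/- hearts. Hearts that did not overlap between MI and sham were found for 59.0% of all genes tested in PKM2fl/fl and 62.3% in PKM2-/- hearts.

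**Figure D2:**
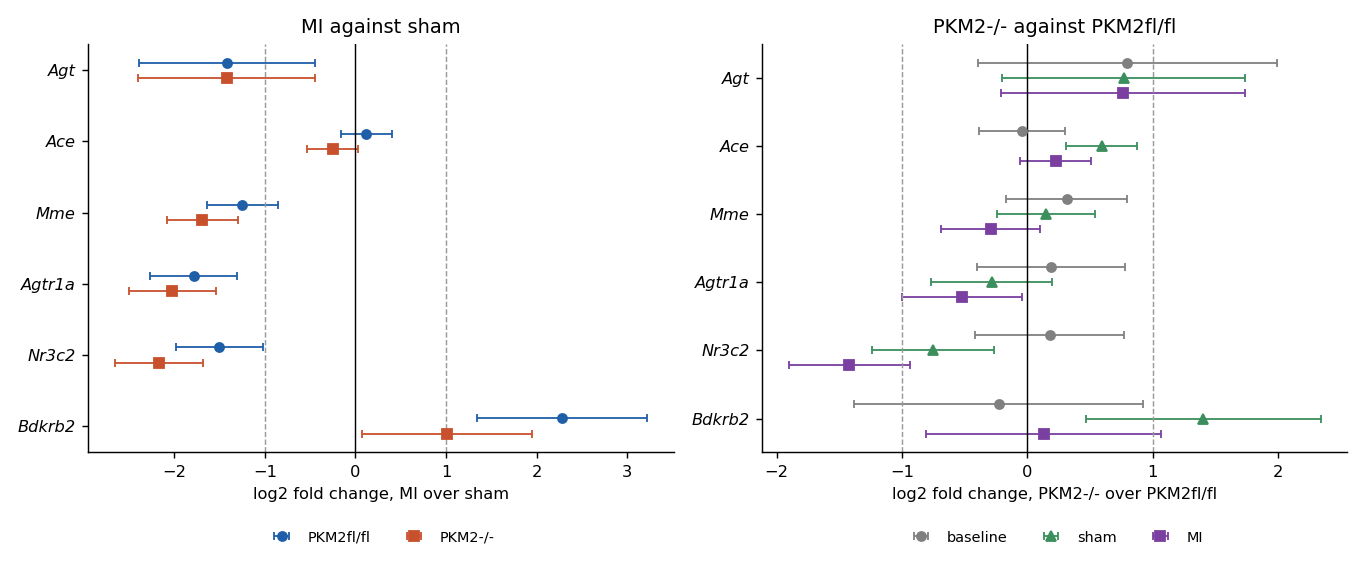
Log2 fold changes (x axis) of the 6 tested genes with 95% intervals from limma, on the left for MI over sham in each genotype and on the right for PKM2-/- over PKM2fl/fl in each treatment. Dashed lines mark a 2-fold change. On the left, Agt, Mme, Agtr1a and Nr3c2 lie below 0 in both genotypes and Bdkrb2 above it. On the right, Nr3c2 after MI, at −1.42, is the 1 value that was differentially expressed.

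Whether the loss of PKM2 changed these responses was asked through the interaction of genotype and MI. None of the 6 genes passed, and 0 of 20576 genes did by limma, beside 1703 genes with an unadjusted p under 0.05, 0 genes called by edgeR and 34 by DESeq2. The interaction ran from −1.27 in Bdkrb2 (95% interval −2.60 to 0.06, adjusted p = 0.615, limma) to −0.01 in Agt (−1.38 to 1.37, adjusted p = 0.999, limma). In Nr3c2 it was −0.67 (−1.35 to 0.02, adjusted p = 0.606, limma). These intervals leave room for a fall of Nr3c2 more than 2-fold larger in PKM2-/- hearts and for no difference.

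Genotypes were then compared within each treatment. After MI, Nr3c2 was 2.67-fold lower in PKM2-/- than in PKM2fl/fl hearts, and it was the 1 of the 6 tested genes that was differentially expressed, where 0.413% of all genes were and 0.258% were lower. The mean was 403 ± 52.7 normalized counts in PKM2-/- and 1138 ± 488 in PKM2fl/fl hearts (SD, n = 3 each), and the highest PKM2-/- heart, at 458, lay under the lowest PKM2fl/fl heart, at 729. The log2 fold change was −1.42 (SE 0.23, adjusted p = 0.0231, limma). The call was lost without PKM2fl/fl MI replicate 1 (adjusted p = 0.0598) and without PKM2-/- MI replicates 1, 2 or 3 (0.0527, 0.0584 and 0.0645, limma). It was also lost when the libraries were scaled to total reads (−1.05, adjusted p = 0.147), a scaling that moved the median of all genes to 0.36, and in a limma fit of these 6 hearts alone (adjusted p = 0.165).

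Beside this difference, the 7 cardiomyocyte markers had a median log2 fold change of −0.48 between PKM2-/- and PKM2fl/fl hearts after MI, with 0 of 7 passing and 0 of 7 without overlap. The 6 neutrophil markers were higher in every PKM2-/- MI heart than in any PKM2fl/fl MI heart, with summed levels of 3778 to 4906 against 1329 to 2345 normalized counts and 0 of 6 passing, and none was at 0. Their part in the difference of Nr3c2 was not tested.

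The other genes after MI did not pass. Agtr1a had a log2 fold change of −0.52 (SE 0.23, adjusted p = 0.255, limma) between genotypes, which became −0.86 with an adjusted p of 0.00287 without PKM2fl/fl MI replicate 3, the heart with the lowest value of its group. Agt was higher on average in PKM2-/- hearts, with a log2 fold change of 0.76 (−0.21 to 1.74, adjusted p = 0.419, limma). Ace, Mme and Bdkrb2 lay between −0.29 in Mme and 0.23 in Ace. Of the 6 genes, only Nr3c2 separated the genotypes after MI, and 18.9% of all genes did.

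After sham surgery none of the 6 genes was differentially expressed between genotypes, where 0.00486% of all genes were. The hearts did not overlap for 4 of the 6 genes, and for 16.5% of all genes. Ace was higher in every PKM2-/- sham heart, with a mean of 2205 ± 242 against 1458 ± 75.5 normalized counts (SD, n = 3 each) and a log2 fold change of 0.59 (95% interval 0.31 to 0.87, adjusted p = 0.109, limma). DESeq2 on the recovered reads gave 0.60 with an adjusted p of 0.00849. Bdkrb2 was also higher, by 1.40 (0.47 to 2.34, adjusted p = 0.258, limma), and Nr3c2 was lower, by −0.75 (−1.24 to −0.27, adjusted p = 0.239, limma).

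At baseline, with 2 hearts per genotype, the log2 fold changes ran from −0.23 in Bdkrb2 to 0.80 in Agt and all 6 had an adjusted p of 1.00 by limma, where 0.00972% of all genes were differentially expressed. Nr3c2 had 3612 and 3376 normalized counts in PKM2fl/fl and 4667 and 3346 in PKM2-/- baseline hearts. These hearts overlapped, and the interval of the log2 difference was −0.42 to 0.77.

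Sham surgery was compared with baseline to see what the operation itself did, using the same sham hearts as above. In PKM2-/- hearts Nr3c2 fell by 1.13 on the log2 scale (SE 0.25, 2.19-fold, adjusted p = 0.0188, limma) and was differentially expressed, where 2.66% of all genes were and 0.608% fell. The call was lost without PKM2-/- baseline replicate 1 (−0.89, adjusted p = 0.196), the highest heart for Nr3c2, or without PKM2-/- sham replicate 2 (adjusted p = 0.0553). It was lost as well with scaling to total reads (adjusted p = 0.246) or to reads outside rRNA-related loci (adjusted p = 0.0503). Ace rose by 0.93 (SE 0.15, 1.90-fold, adjusted p = 0.00296, limma), from 1221 and 1094 normalized counts at baseline, which passed the test, as 5.14% of all genes did, but was under 2-fold. Over the alternatives other than leaving out a heart the rise of Ace ran from 0.91 to 1.14, and its highest value was above 2-fold. Bdkrb2 and Agtr1a differed by 1.40 and −0.54 without passing (adjusted p = 0.121 and 0.264, limma).

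In PKM2fl/fl hearts sham surgery moved none of the 6 genes past the threshold, where 0.170% of all genes were differentially expressed. Ace differed by 0.29 (95% interval −0.03 to 0.60, adjusted p = 0.625, limma) and Nr3c2 by −0.20 (−0.74 to 0.34, adjusted p = 0.936, limma). The difference between genotypes in the response to sham surgery, tested after the data had been seen, was 0.64 for Ace (adjusted p = 0.583) and −0.93 for Nr3c2 (adjusted p = 0.676) by limma, and neither passed. The 6 neutrophil markers were all called higher after sham in PKM2-/- hearts, with sums of 136 to 174 at baseline and 1043 to 1334 after sham. In PKM2fl/fl hearts they summed to 84.0 to 190 at baseline and 231 to 1374 after sham with 0 of 6 called, and their part in the sham values was not tested.

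The order of the group means describes which groups stood apart for each gene. Between genotypes, 0 of the 6 tested genes passed after sham or at baseline. The genotypes did not overlap after sham for 16.5% of all genes. MI and sham hearts did not overlap for 59% in PKM2fl/fl and 62.3% in PKM2-/- hearts. No such share was counted for baseline hearts or for groups differing in both genotype and treatment. By an exact permutation test, 2 baseline hearts against 2 cannot give a p under 0.333. For Agtr1a, the levels fell from PKM2-/- and PKM2fl/fl baseline through PKM2fl/fl sham and PKM2-/- sham to the MI groups, and neighbours did not overlap on either side of PKM2-/- sham. For Bdkrb2, the highest groups were both MI groups, which overlapped, then PKM2-/- sham, which stood apart from its neighbours on both sides. Mme was highest in PKM2-/- baseline hearts, above both PKM2fl/fl baseline hearts, and the sham groups stood clear of the MI groups. For Ace, the baseline groups were lowest and overlapped each other, and PKM2fl/fl sham lay just above them. All neighbouring groups overlapped for Agt.

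The circulating and tissue partners of these genes were read from 4 lists of related genes. Renin (Ren1), which makes angiotensin I from angiotensinogen, had 2 reads in 1 of the 16 hearts. Cyp11b2, the aldosterone synthase, had a highest value of 2.61 normalized counts. Of the kininogen genes, which encode the precursor of bradykinin, Kng1 stayed at or below 1.62 normalized counts. No heart had more than 2 reads on any of these 3 genes, which is under the floor that a count of 0 allows. Kng2, the other kininogen gene of the mouse, named after its values were seen, was detected in every heart, at 52.6 to 146 normalized counts. Its mean was 74.4 ± 4.25 after sham and 102 ± 11.8 after MI in PKM2fl/fl, and 66.2 ± 7.59 and 112 ± 28.8 in PKM2-/- hearts (SD, n = 3 each), and MI and sham hearts did not overlap in either genotype. Kng2 rose by 0.73 on the log2 scale, under 2-fold, in PKM2-/- hearts (adjusted p = 0.00844, limma), which was lost without MI replicate 3 (adjusted p = 0.0545), and its difference in PKM2fl/fl hearts was 0.44 (adjusted p = 0.0991, limma).

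Of 13 other angiotensin genes tested, 2 were called higher and 2 lower after MI in PKM2fl/fl hearts, and 3 higher and 1 lower in PKM2-/- hearts. Over all genes, 12.4% were called higher and 11.1% lower in PKM2fl/fl, and 14.5% and 14.3% in PKM2-/- hearts. Mas1, the receptor for angiotensin 1-7, fell by 1.11 on the log2 scale in PKM2fl/fl (adjusted p = 0.0152) and by 1.36 in PKM2-/- hearts (adjusted p = 0.00364, limma), and in PKM2fl/fl hearts this was lost without sham replicate 2 (adjusted p = 0.0627) or MI replicate 3 (−0.63, adjusted p = 0.0823). The peptidases Anpep, which trims angiotensin III, and Prcp, which removes the last residue of angiotensin II, rose by 1.73 and 1.37 in PKM2fl/fl and by 1.53 and 1.52 in PKM2-/- hearts, with adjusted p from 1.63e-06 to 3.46e-05 by limma. The prorenin receptor Atp6ap2 rose by 0.80, under 2-fold, in PKM2fl/fl (adjusted p = 0.000501) and by 1.08 in PKM2-/- hearts (adjusted p = 2.67e-05, limma). Mcpt4, a mast cell chymase that can form angiotensin II, fell by 1.43 in PKM2fl/fl hearts (adjusted p = 0.0215, limma), from 19.6 ± 6.92 after sham to 6.85 ± 3.58 normalized counts after MI (SD, n = 3 each), on 4 to 46 reads per heart. It was lost without PKM2fl/fl sham replicates 2 or 3 (adjusted p = 0.0824 and 0.0730) or MI replicate 3 (0.0992), and its difference in PKM2-/- hearts was −1.07 (adjusted p = 0.0705, limma). The 6 mast cell markers, Mcpt4 among them, summed to 145 to 293 after sham and 630 to 874 after MI in PKM2fl/fl hearts. Of the 5 tested, 1 was called higher and 3 lower there, and 1 higher and 1 lower in PKM2-/- hearts. Their part in the fall of Mcpt4 was not tested. Over the 13 angiotensin genes the median log2 fold change was 0.35 in PKM2fl/fl and 0.13 in PKM2-/- hearts.

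Of 8 other kallikrein-kinin genes tested, 1 was called higher and 1 lower after MI in PKM2fl/fl hearts, and 0 higher and 1 lower in PKM2-/- hearts. Among all genes, 23.5% were called in PKM2fl/fl and 28.8% in PKM2-/- hearts. Cpn2, the regulatory subunit of carboxypeptidase N, which converts bradykinin to its des-Arg form, fell by 2.45 in PKM2fl/fl (adjusted p = 0.00124) and fell by 3.54 in PKM2-/- hearts (adjusted p = 3.95e-05, limma). Its mean was 85.6 ± 12.0 after sham and 20.0 ± 14.3 after MI in PKM2fl/fl, and 52.3 ± 14.8 and 3.52 ± 0.980 in PKM2-/- hearts (normalized counts, SD, n = 3 each). The PKM2-/- MI hearts had 3 to 6 reads on Cpn2, near the floor of a count of 0, so the size of that fall is uncertain. It ran from −3.93 to −3.11 over the alternatives other than leaving out a heart. Ece2, a peptidase related to neprilysin, rose by 1.12 in PKM2fl/fl (adjusted p = 0.00295) and by 0.90, under 2-fold, in PKM2-/- hearts (adjusted p = 0.0104, limma), where it was lost without MI replicate 2 (adjusted p = 0.0661). The list's median was 0.24 in PKM2fl/fl and 0.37 in PKM2-/- hearts.

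Of 12 genes for signalling from these receptors through Gq, 0 were called after MI in PKM2fl/fl and 1 in PKM2-/- hearts, while 5 passed upward and 3 downward in PKM2fl/fl without regard to size. The 1 called was Rgs5, a damper of Gq signalling that is also a pericyte marker, which fell by 1.00 in PKM2fl/fl (adjusted p = 0.000148) and by 1.41 in PKM2-/- hearts (adjusted p = 4.65e-06, limma). The list's median log2 fold change was 0.18 in PKM2fl/fl and −0.05 in PKM2-/- hearts. For comparison, 23.5% of all genes were called in PKM2fl/fl and 28.8% in PKM2-/- hearts. Without regard to size, 5097 of 20576 genes passed upward and 5202 downward in PKM2fl/fl hearts.

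**Figure D3:**
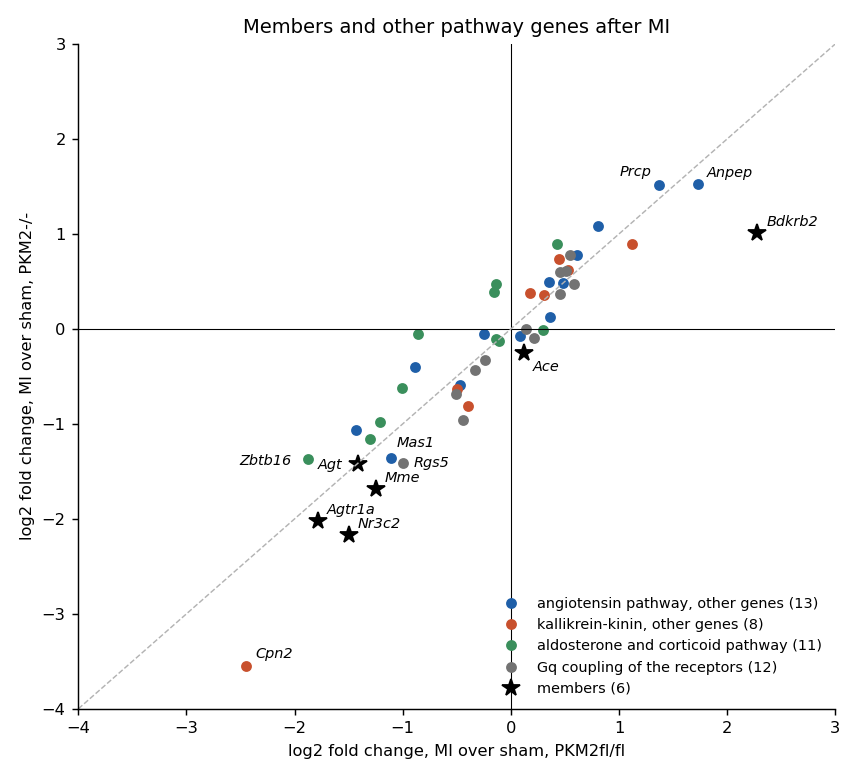
Log2 fold change of MI over sham in PKM2fl/fl (x axis) and PKM2-/- hearts (y axis) for the 6 tested members, as stars, and the tested genes of the 4 related lists, as points coloured by list. The dashed line marks equal values. Mas1 lies with the falling members at −1.11 on the x axis, Anpep and Prcp at 1.73 and 1.37 lie at the upper right, and Cpn2 is lowest in both genotypes.

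Of 11 genes of aldosterone and corticoid handling or response, 0 were called higher and 4 lower after MI in PKM2fl/fl, and 0 higher and 2 lower in PKM2-/- hearts. Over all genes, 12.4% were called higher and 11.1% lower in PKM2fl/fl, and 14.5% and 14.3% in PKM2-/- hearts. Hsd11b1, which regenerates active glucocorticoid, fell by 1.30 in PKM2fl/fl (adjusted p = 0.000138) and by 1.16 in PKM2-/- hearts (adjusted p = 0.000272, limma). The corticoid-induced transcription factors Zbtb16 and Klf9 fell by 1.88 and 1.21 in PKM2fl/fl (adjusted p = 2.12e-05 and 1.14e-05) and by 1.37 and 0.98 in PKM2-/- hearts (adjusted p = 0.000234 and 4.88e-05, limma). Tsc22d3, another gene induced by glucocorticoids, fell by 1.00 in PKM2fl/fl (adjusted p = 0.000390) and by 0.62 in PKM2-/- hearts (adjusted p = 0.0101, limma), where it was lost without sham replicate 1 (adjusted p = 0.0544). Hsd11b2, which protects Nr3c2 from glucocorticoids, stayed between 12.8 and 30.5 normalized counts in all 16 hearts, with log2 differences of 0.30 and −0.01 that did not pass (adjusted p = 0.486 and 0.987, limma). The list's median log2 fold change was −0.15 in PKM2fl/fl and −0.11 in PKM2-/- hearts.

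Between genotypes after MI, 1 of the 11 corticoid genes was called higher and 0 lower, where 0.156% of all genes were called higher. This was Per1, a clock gene induced by corticoids, named here with Fkbp5, Sgk1 and Nr3c1 after its values were seen. Per1 had 2148, 1346 and 1206 normalized counts in PKM2-/- and 580, 620 and 867 in PKM2fl/fl hearts after MI. It was higher by 1.16 on the log2 scale (adjusted p = 0.0365, limma), and leaving out any 1 MI heart but PKM2fl/fl replicate 3, or any of 4 other hearts, ended the call (adjusted p = 0.0523 to 0.143). Tsc22d3 differed by 0.83, under 2-fold, at an adjusted p of 0.0494, and it was lost in 14 of the 16 fits that left out a heart. Fkbp5, which encodes a chaperone of corticoid receptors, had 7894, 6241 and 6095 normalized counts in PKM2-/- and 1977, 1533 and 3550 in PKM2fl/fl hearts, a log2 difference of 1.60 that did not pass (adjusted p = 0.0775, limma). Without PKM2fl/fl MI replicate 3 it was 1.94 and passed (adjusted p = 0.0115).

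For sham surgery against baseline, 1 of the 11 corticoid genes was called in PKM2-/- hearts, where 2.66% of all genes were, and 3 passed upward and 1 downward without regard to size. Fkbp5 rose by 2.17 (adjusted p = 0.0165), Tsc22d3 by 0.99 (adjusted p = 0.0133) and Sgk1, a kinase induced by aldosterone and glucocorticoids, by 0.97 (adjusted p = 0.0282, limma), the last pair under 2-fold, and Nr3c1, the glucocorticoid receptor, fell by 0.46 (adjusted p = 0.0354, limma). Nr3c1 no longer passed without either PKM2fl/fl baseline heart, PKM2-/- baseline replicate 1 or any 1 PKM2-/- sham heart (adjusted p = 0.0504 to 0.341). Each of the 3 that rose was lost when either PKM2-/- baseline heart was left out, with adjusted p from 0.0626 to 0.146. Fkbp5 and Sgk1 were also lost without PKM2-/- sham replicate 2 (adjusted p = 0.0588 and 0.0886), Tsc22d3 without sham replicate 1 (adjusted p = 0.0544) and Sgk1 without sham replicate 3 (adjusted p = 0.0554). In PKM2fl/fl hearts 0 of the 11 passed. The log2 differences were 1.19 in Fkbp5 (adjusted p = 0.449), 0.53 in Tsc22d3 (0.428) and 0.33 in Sgk1 (0.816, limma). The list's median was 0.49 in PKM2fl/fl and 0.39 in PKM2-/- hearts. The difference between genotypes in the response to sham was 0.99 in Fkbp5, 0.46 in Tsc22d3 and 0.64 in Sgk1, and none of the 3 passed (adjusted p = 0.924, 0.916 and 0.841, limma).

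**Figure D4:**
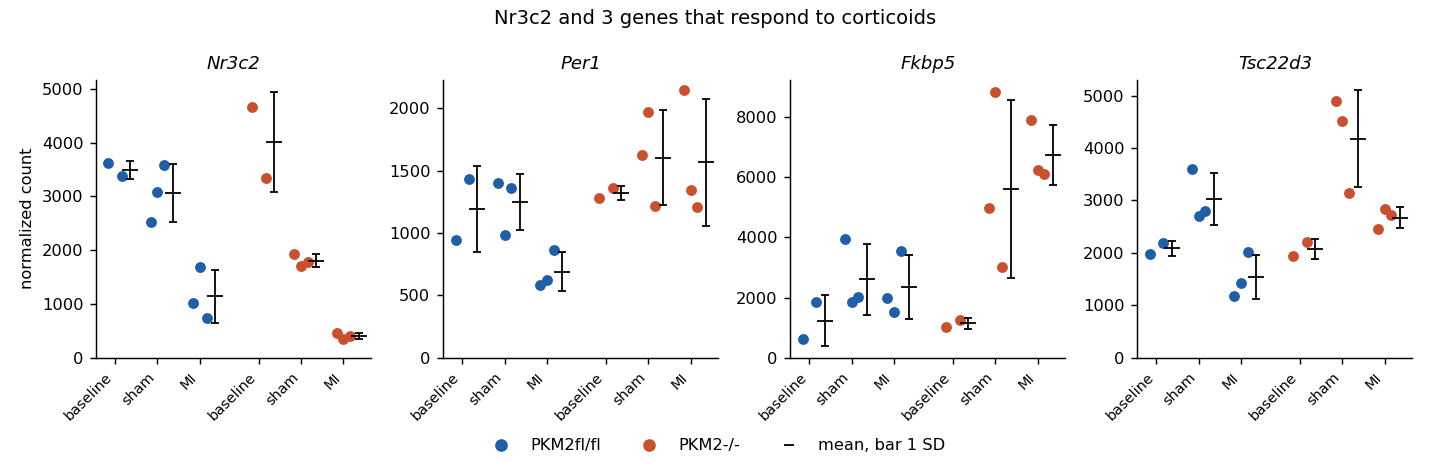
Normalized counts (y axis, from 0) of Nr3c2, Per1, Fkbp5 and Tsc22d3 in each of the 16 hearts, by treatment (x axis), with PKM2fl/fl in blue and PKM2-/- in orange. Points are hearts, and the bar beside them is the mean with 1 SD. After MI, Nr3c2 is lower in every PKM2-/- heart (353 to 458) than in any PKM2fl/fl heart (729 to 1678), and the other 3 genes are higher. Of the 11 corticoid genes tested, 5 separated the genotypes after MI, as 18.9% of all genes did. Per1 and Fkbp5 were named after their values were seen. Fkbp5 did not pass, and Tsc22d3 differed by less than 2-fold.

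Across the 16 hearts, Agtr1a, Mme and Nr3c2 rose and fell together, with Pearson's r of 0.95 between Agtr1a and Nr3c2, 0.94 between Agtr1a and Mme and 0.91 between Mme and Nr3c2 on the log2 scale. Bdkrb2 ran the other way, with r from −0.83 to −0.79 against the same 3 genes. These values are descriptions over hearts that fall into sham, baseline and MI groups, which differ in mean. The genes with a pattern most like Agtr1a were Suclg2, Camk2a and Dsg2 (r of 0.99 each), and those most like Nr3c2 were Cdc14b (0.99), Bphl and Etl4 (0.98 each). Mme was most like Zim1, Gm12002 and Pkd2l2 (0.98 each), Agt most like Rgcc, Lancl3 and Sik3 (0.90 to 0.91), and Bdkrb2 most like Nptxr, Gm50022 and Gm34907 (0.94 to 0.95). Ace was most like Gm11651, at r of 1.00, which is the antisense RNA over Ace, followed by Igfbp4 (0.92) and Heg1 (0.90).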

How the data were processed

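RNA from the left ventricle of 16 male mice was depleted of rRNA, and NEBNext Ultra II libraries were sequenced in paired ends on a NextSeq 550. The authors trimmed with PRINSEQ, used HISAT2 to align reads to mm10 and featureCounts to assign them to genes, and scaled libraries with DESeq2. Versions and the strand setting are not given in the sources used here. The deposited values are a normalized signal for each gene and library, the read count divided by the size factor of its library. The authors' own comparison of the genotypes at baseline, deposited as a log2 fold change, its standard error, a Wald score and a p-value with its adjusted form, was not used. Dividing by the value of 1 read gave whole reads for 100% of values above 0 (tolerance 0.01 reads). Totals were 20623769 to 71855101 reads, and 0 columns were left without a sample.

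Groups came from the labels. log2 of the normalized count plus 1 was fitted with limma-trend 3.58.1 in R 4.3.3, with all 16 libraries in 6 groups, for genes with a mean of at least 10, and Benjamini-Hochberg adjustment. Differentially expressed, or called, means an adjusted p under 0.05 and at least 2-fold, and SE is the standard error of the log2 fold change. Low genes were compared by exact permutation tests (scipy 1.17.1). The fits were tested on simulated data. The alternatives were edgeR 4.0.16 and DESeq2 1.42.0 on the recovered reads, a pseudocount of 0.1, scaling by TMM factors, by total reads or by reads outside rRNA-related loci, no fold threshold, no filter on low values, only the groups compared, the replicate number as a block, and each library left out.

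The members, gene lists and tests were chosen with earlier results of these data known. The 8 members are always named. From each related list, at most 4 called genes with the smallest adjusted p are named, and Ren1, Mas1, Kng1, Hsd11b2, Cyp11b2, Pkm and the 3 genes most like each tested member by Pearson's r are named too. A further gene of these lists is not reported here. Transcript lengths and overlapping genes are from GENCODE M39, and promoters are from RefSeq on GRCm38.p6.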

Additional observations from a re-analysis of the deposited data

How the results depend on the processing

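Over the single-gene results, leaving out a library kept the direction and the side of the threshold in 1047 of 1120 values, and the other alternatives did so in 587 of 632. A left-out heart from outside a comparison cannot move its log2 fold change, and results that stayed without passing count as kept. The first total therefore does not measure how firm the calls are. The falls of Agtr1a, Mme and Nr3c2 after MI and the rise of Bdkrb2 in PKM2fl/fl hearts kept direction and side under all the alternatives. The cause of the changes was not tested. Bdkrb2 in PKM2-/- hearts also passed with scaling to total reads (adjusted p = 0.00894), to reads outside rRNA-related loci (0.0137), in a limma fit of its own groups (0.0297), and without PKM2-/- MI replicate 3, either PKM2-/- baseline heart or PKM2fl/fl sham replicate 2 (0.0367 to 0.0467). With scaling to total reads, Agt (adjusted p = 0.0916), Mas1, Hsd11b1, Klf9 and Tsc22d3 in PKM2-/- hearts and Atp6ap2 and Ece2 in PKM2fl/fl hearts no longer passed. That scaling moved the median of all genes after MI to −0.17 in PKM2fl/fl and 0.52 in PKM2-/- hearts, and the split of called genes in PKM2-/- hearts from 2974 higher and 2949 lower to 5500 and 1515. In PKM2fl/fl hearts it went from 2553 higher and 2279 lower to 2050 and 2851, and between genotypes after MI from 32 and 53 to 101 and 20. Scaling to reads outside rRNA-related loci gave medians of 0.13, 0.36 and 0.16 for MI in PKM2fl/fl, MI in PKM2-/- and genotype after MI, with 3016 higher and 1832 lower, 4590 and 1896, and 58 and 20 genes called. Leaving out a baseline heart left 1 in its group, assumed to vary like the other groups. Tsc22d3 in PKM2-/- hearts was also lost with reads outside rRNA-related loci (−0.27, adjusted p = 0.307), and Mas1 in PKM2fl/fl hearts with only the groups compared (0.0548). Between genotypes after MI, Per1 was lost with only the groups compared (0.165), Tsc22d3 was lost under 7 settings other than leaving out a heart (0.0520 to 0.184), and Fkbp5 passed with total reads (0.00169). Nr3c1 after sham in PKM2-/- hearts was lost with both read scalings, no filter, only the groups compared and the block (0.0652 to 0.883). With no filter on low values, Mcpt4 in PKM2fl/fl hearts no longer passed (adjusted p = 0.0607). Depth limits Agt, Bdkrb1 and Bdkrb2, which rested on as few as 14, 0 and 4 reads in a library.

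Signs turned only in values that had not passed. With total reads, Ace after MI was −0.060 in PKM2fl/fl and 0.26 in PKM2-/- hearts, Hsd11b2 was 0.48 in PKM2-/- hearts, and the interaction of genotype and MI was 0.021 in Nr3c2 and 0.67 in Agt. With reads outside rRNA-related loci, Ace was 0.10 and Hsd11b2 0.33 in PKM2-/- hearts and the interaction was 0.22 in Agt, and it was 0.016 in Agt with a pseudocount of 0.1. Leaving out a library gave ranges of −0.034 to 0.22 for Ace after MI in PKM2fl/fl hearts, −0.89 to 0.43 for Bdkrb2 between genotypes at baseline, −0.45 to 0.64 for the interaction in Agt, and −0.33 to 0.21 for Hsd11b2 after MI in PKM2-/- hearts.

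Counts of members called moved as follows. MI against sham gave 4 to 5 without a library and 5 to 6 otherwise in PKM2fl/fl hearts, from 5, and 3 to 5 and 4 to 5 in PKM2-/- hearts, from 4. Nr3c2 between genotypes after MI was the 1 call there and became 0 with total reads or only the groups compared, and 0 to 1 without a library. Sham against baseline in PKM2-/- hearts gave 0 with reads outside rRNA-related loci, 2 with no fold threshold, and 0 to 1 without a library. With total reads the count stayed at 1, but the call was Ace and no longer Nr3c2. Counts over all genes that moved by over 1.5 times were these. After MI they were 10299 in PKM2fl/fl and 11679 in PKM2-/- hearts with no fold threshold. Between genotypes after MI, from 85, they were 292 with DESeq2, 6 with only the groups compared, 46 with the replicate block and 199 with no fold threshold, and 11 to 632 without a library. Between genotypes after sham, from 1, they were 112 with DESeq2, 113 with total reads, 9 with only the groups compared, 2 with no fold threshold, 0 with reads outside rRNA-related loci, no filter or the replicate block, and 0 to 49 without a library. At baseline, from 2, they were 1 with edgeR or the replicate block, 16 with DESeq2, 44 with total reads, 9 with a pseudocount of 0.1, 41 with only the groups compared, and 0 to 40 without a library. The interaction with MI, from 0, gave 34 with DESeq2, 54 with total reads and 0 to 226 without a library. Sham against baseline in PKM2fl/fl, from 35, gave 23 with edgeR or the replicate block, 248 with DESeq2, 94 with total reads, 1 with only the groups compared and 7 to 212 without a library. In PKM2-/- hearts, from 548, it gave 363 with only the groups compared, 1058 with no fold threshold and 243 to 622 without a library. The interaction with sham, chosen after seeing the data, went from 0 to 21 with DESeq2, 4 with total reads, 2 with reads outside rRNA-related loci, 6 with a pseudocount of 0.1, 1 with no filter and 0 to 8 without a library.

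The replicate numbers paired no animals, and same-numbered libraries had correlations of −0.20 to 0.13 in their deviations from the group means. With the number as a block, Nr3c2 between genotypes after MI kept an adjusted p of 0.0412 by limma, while Per1 (adjusted p = 0.0690) and Tsc22d3 (0.0792) no longer passed there.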
